A study of Rattus norvegicus with 12 samples.

Results

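The genes described here are 45 rat genes of fatty acid oxidation and of the peroxisome proliferator-activated receptors (PPARs), out of 22093 genes measured. They were taken by symbol from a list of PPARs, PPAR target genes and enzymes of fatty acid oxidation. No value served to pick them, but the list was chosen with earlier results of these data known. For each gene, the probe set whose annotation gave that symbol alone was used, and where there were several, the brightest by its mean over all 12 arrays, which concerned only Echs1. The RNA came from TRL1215, an established line of rat liver epithelial cells, grown in William's E medium with serum and passaged weekly. Passage-matched control cells received no compound. The groups T10, T50 and T100 were kept in perfluorooctanoic acid (PFOA), a fluorinated fatty acid analogue, at 10, 50 and 100 µM, and their labels give an exposure of 38 weeks. Each of the 4 groups had 3 arrays. All cells derive from 1 line, no vehicle is named, and nothing says that the 3 replicates of a group were separate cultures, so p-values measure only the spread between these samples, which may be technical.

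PPARs are nuclear receptors that bind fatty acids, pair with retinoid X receptors such as the product of Rxra, and act at direct repeats of a hexamer with a 1-base spacer near their target genes. In rat liver, PPAR alpha is the receptor of the peroxisome proliferators, a class of compounds that raises the enzymes of peroxisomal and mitochondrial fatty acid oxidation and of omega-hydroxylation, and PFOA is a known activator of it. Long-chain fatty acids are bound by carrier proteins, activated to acyl-CoA, carried into mitochondria by the carnitine shuttle and shortened there in a repeating cycle of 4 reactions, whose electrons pass through an electron transfer flavoprotein to the respiratory chain.

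Values are the deposited log2 signals, whose medians over all probe sets lay between 3.73 and 3.81 on the 12 arrays. Background in a group was set at the level under which 95% of the 1153 negative-control probe sets lay. It stood at 5.42 on the control arrays, 5.77 on those of T10, 5.52 on those of T50 and 5.65 on those of T100, and a gene counted as measured above it when its group mean was higher. None of 14 hepatocyte markers measured, among them albumin and Hnf4a, was above background in any group, and none of 6 adipocyte markers was. Of 10 stellate cell and fibroblast markers, 4 were above background in a group (Col1a1, Col1a2, Col3a1 and Acta2). The summed linear level of those 10 markers was 4180 to 4780 in control cells, 2080 to 4750 in T10 cells, 2880 to 4960 in T50 cells and 12700 to 21600 in T100 cells. A sum follows its brightest genes. In T100 against control 2 of the 10 were called higher (Col1a1 and Acta2) and 0 lower, where 0.941% and 0.521% of all genes were. The median log2 difference of the 10 was 0.002. In T10 against control 0.869% of all genes were called. Of the 10 markers, Acta2 was called lower there (log2 difference -2.21, limma, adjusted p = 0.0114) and 0 higher. Of 8 endothelial markers only Tek was above background in a group, and it was called lower in T10 (-0.64, adjusted p = 0.0258). Of 9 macrophage and leukocyte markers only Cd14 was, and of 6 biliary markers only Cftr. Cd3e, below background, was called lower in T10 and T50. The part of these markers in the results was not tested.

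Most of these genes, with the receptors and such well-known targets in rodent liver as Cyp4a1 and Ehhadh among them, gave signals below background. Of the 45 genes, 14 were above background in all 4 groups, 31 in no group and 0 in some groups only, while 3833 of all genes were above background in all 4 groups. Among the 14 genes were the fatty acid binding protein Fabp5, the acyl-CoA synthetases Acsl3 and Acsl4, and the carnitine palmitoyltransferase Cpt1a. The mitochondrial enzymes Acadl, Hadha, Hadhb, Echs1 and Acaa2, the isomerase Eci2 and the flavoprotein subunit Etfa were also among them. The others were catalase (Cat), the uncoupling protein Ucp2 and the lipid droplet protein Plin2. Background is not the upper limit of the negative controls: over the 12 arrays 99.5% of them, not all, were dimmer than Ucp2. A gene below background may still be expressed, but its signal did not pass the level set from the negative controls. For genes below background, log2 differences and tests are given as measured, with no fold change.

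**Figure D1:**
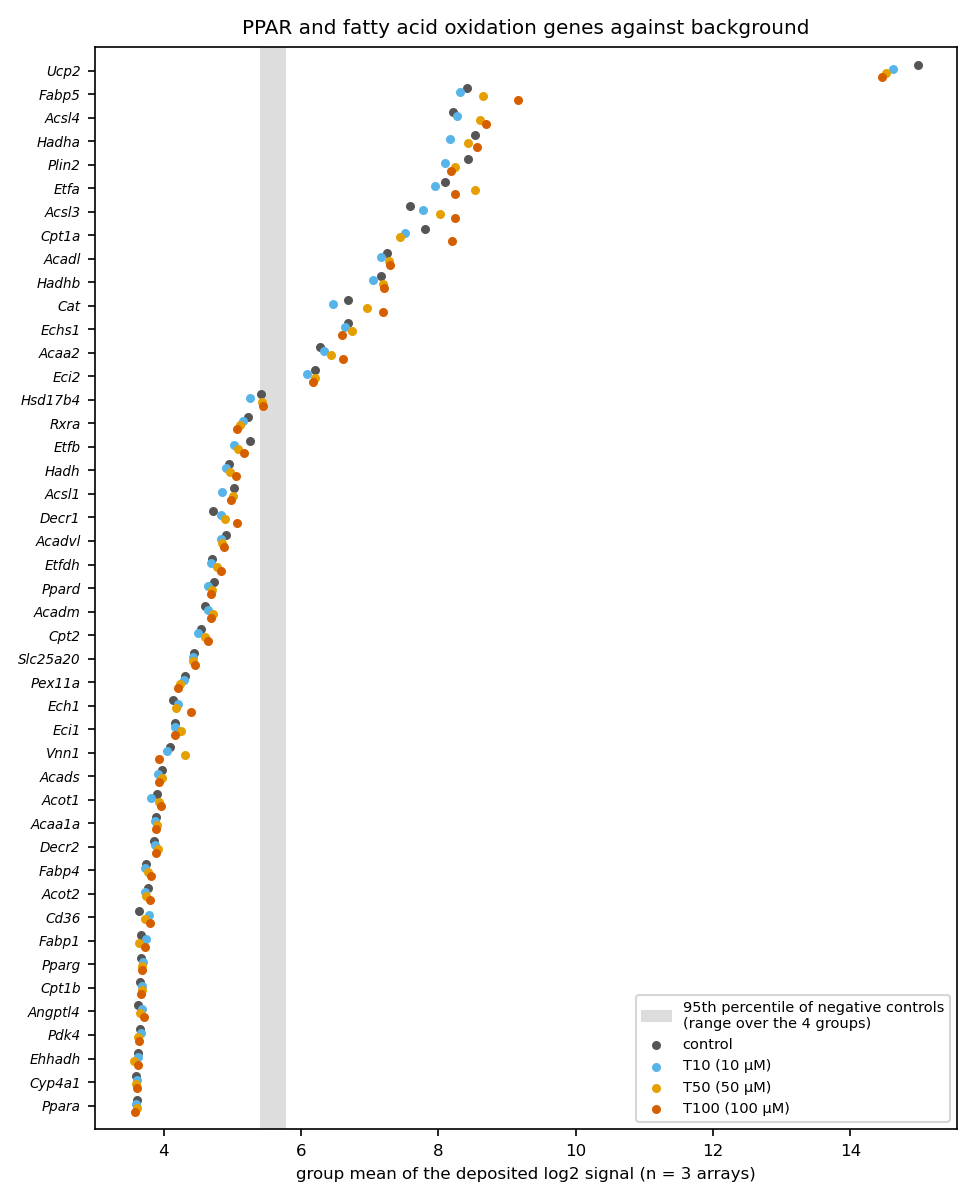
Group means of the deposited log2 signal (horizontal axis, n = 3 arrays a group) for the 45 genes, each on a line of its own, with the background level shaded as its range over the 4 groups. The 14 genes above the shaded band lie above it in all 4 groups, and the 31 others lie below background; levels of different genes are not comparable, since probes differ.

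All 4 receptor genes were below background in every group. Ppara, which encodes PPAR alpha, had group means of 3.61 in control cells, 3.60 in T10 cells, 3.61 in T50 cells and 3.58 in T100 cells, and over the 12 arrays only 12.7% of negative-control probe sets were dimmer. Pparg, the receptor of fat cells, averaged between 3.67 and 3.70 in the 4 groups. Ppard, the widely expressed member of the family, and Rxra were closer to the background level, with 92.0% and 95.2% of negative-control probe sets below them. Rxra averaged 5.23 ± 0.06 in control cells, 5.15 ± 0.08 in T10 cells, 5.11 ± 0.11 in T50 cells and 5.07 ± 0.08 in T100 cells (SD, n = 3 each), and none of its differences passed the test.

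At the low level of Ppara and Pparg were 5 targets often used to read PPAR alpha activation in rat liver. Other genes of the list, among them Cpt1a, Hadha, Cat and Plin2, were above background. Cyp4a1, which omega-hydroxylates fatty acids, averaged between 3.60 and 3.61 in the 4 groups. Ehhadh, the peroxisomal bifunctional enzyme, averaged between 3.57 and 3.63, and Fabp1, the liver fatty acid binding protein, between 3.64 and 3.74. Pdk4, a kinase that restrains glucose oxidation, averaged between 3.62 and 3.67, and Angptl4, a secreted inhibitor of lipoprotein lipase, between 3.63 and 3.71. These 5 genes, with Ppara, Pparg, Cpt1b, Cd36, Fabp4 and Acot2, made up 11 genes at or under the median of the negative controls, with each probe set averaged over the 12 arrays. Over all 31 dim genes and the 3 exposures, differences from control ran from -0.23 for Etfb at T10 to 0.35 for Decr1 at T100.

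Promoter sequences bear on these genes because the PPAR response element is a direct repeat. The RefSeq promoter table (rat build GRCr8) held 35 of the 45 genes. The 250 bases upstream of each start were searched on both strands for AGGTCANAGGTCA with at most 2 mismatches, the N being the spacer. Of all 33469 promoters in the table, 3.15% held such a match, and 0.368% held one with at most 1 mismatch. The 35 genes had 37 promoters, and 5 of the genes held a match: Fabp1 and Acadvl with 1 mismatch, and Cat, Echs1 and Etfa with 2. Bases further upstream and within the genes were not searched. A match describes letters only and is not evidence that a receptor binds there. Shown are the promoter with the match of a classical liver target (Fabp1), that of the very long-chain acyl-CoA dehydrogenase (Acadvl), both of whose signals were below background, and those of Cat and Etfa, which were above it. Ucp2, the gene with the smallest adjusted p against control, had no match and is shown for comparison. Each is written 5′ to 3′ in the direction of the gene, ends at the base before the start, and has the match in capitals.
Fabp1, chr4:104749090-104749339 (+): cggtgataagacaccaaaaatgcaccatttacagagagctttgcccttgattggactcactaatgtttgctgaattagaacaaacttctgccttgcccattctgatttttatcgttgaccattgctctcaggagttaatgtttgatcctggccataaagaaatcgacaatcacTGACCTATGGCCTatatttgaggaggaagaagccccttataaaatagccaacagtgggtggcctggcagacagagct
Acadvl, chr10:55236706-55236955 (-): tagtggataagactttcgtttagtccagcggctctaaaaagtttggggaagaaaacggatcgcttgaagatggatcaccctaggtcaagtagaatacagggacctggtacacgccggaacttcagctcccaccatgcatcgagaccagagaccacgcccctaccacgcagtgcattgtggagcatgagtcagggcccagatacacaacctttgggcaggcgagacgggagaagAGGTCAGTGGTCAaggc
Cat, chr3:110329527-110329776 (-): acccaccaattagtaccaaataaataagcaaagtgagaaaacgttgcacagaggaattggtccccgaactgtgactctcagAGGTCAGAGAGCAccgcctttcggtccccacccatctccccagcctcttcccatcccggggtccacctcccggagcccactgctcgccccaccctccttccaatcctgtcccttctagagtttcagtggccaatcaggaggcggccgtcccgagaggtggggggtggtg
Etfa, chr8:64787966-64788215 (-): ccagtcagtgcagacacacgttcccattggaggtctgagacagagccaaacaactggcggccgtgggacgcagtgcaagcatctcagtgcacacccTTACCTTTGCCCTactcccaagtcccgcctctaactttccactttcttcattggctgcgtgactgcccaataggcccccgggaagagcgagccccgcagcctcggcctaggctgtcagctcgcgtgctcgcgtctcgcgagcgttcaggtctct
Ucp2, chr1:164251123-164251372 (+): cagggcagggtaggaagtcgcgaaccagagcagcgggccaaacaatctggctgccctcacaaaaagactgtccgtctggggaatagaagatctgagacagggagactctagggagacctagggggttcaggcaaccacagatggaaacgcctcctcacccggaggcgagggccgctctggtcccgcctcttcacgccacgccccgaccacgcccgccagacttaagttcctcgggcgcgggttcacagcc

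The match lay 77 to 65 bases upstream of the start in Fabp1, 17 to 5 in Acadvl, 169 to 157 in Cat and 154 to 142 in Etfa. Those of Fabp1 and Etfa read as the repeat on the opposite strand. Acadvl averaged between 4.84 and 4.91 in the 4 groups, Fabp1 had the values given above, and neither gene passed any of the 7 tests. Hadha and Hadhb, which encode both subunits of the mitochondrial trifunctional protein, lie head to head, and their upstream windows share 200 bases, with no match in either.

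At the lowest dose none of the 45 genes passed the test against control, and at the higher doses 2 and 4 did. Differences were tested with limma on all 22093 genes, two-sided, and called at a Benjamini-Hochberg adjusted p under 0.05. In T10 against control 0 of 45 were called, where 0.869% of all genes were, and 5 of the 45 had an unadjusted p under 0.05, against 12.6% of all genes. In T50 against control 2 of 45 were called (Etfa higher, Ucp2 lower), where 1.31% of all genes were, 0.742% higher and 0.566% lower; 10 of the 45 had an unadjusted p under 0.05, against 10.5% of all genes. In T100 against control 4 of 45 were called (Acsl3, Acaa2 and Decr1 higher, Ucp2 lower), where 1.46% of all genes were, 0.941% higher and 0.521% lower; 12 of the 45 had an unadjusted p under 0.05, against 12.4% of all genes. In RNA from whole cultures, fewer expressing cells and less RNA per cell cannot be told apart. Among the 14 genes above background the counts were 0, 2 and 3, and among all 3833 genes above background in every group the shares were 2.27%, 3.94% and 4.36%.

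The medians of the 45 genes moved little. The median difference from control was -0.03 in T10, 0.01 in T50 and 0.03 in T100, and over all genes it was 0.00 in each of the 3. Of the 14 genes above background, 3 were higher and 11 lower in T10, with a median of -0.12, where the median of all 3833 such genes was -0.08. In T50 9 were higher and 5 lower, with medians of 0.05 for the 14 genes and 0.00 for the 3833. In T100 10 were higher and 4 lower, with medians of 0.10 and 0.05. The 3 comparisons share the same control arrays.

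Arrays that did not overlap were counted in each direction. In T10 the 3 exposed arrays lay wholly above the 3 controls for 2 of the 45 genes (6.32% of all genes) and wholly below for 8 (10.6% of all genes). In T50 they lay above for 10 (9.75%) and below for 3 (7.29%), and in T100 above for 12 (10.7%) and below for 4 (7.39%). Among the 14 genes above background, 0 lay above and 5 below in T10, where 3.08% and 23.8% of the 3833 genes did. In T50 5 lay above and 1 below, where 15.3% and 12.6% of the 3833 did. In T100 7 lay above and 1 below, where 22.9% and 7.93% of the 3833 did.

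None of the 45 differed from control by more than 0.5 in T10 or T50, and in T100 4 did: Fabp5, Acsl3, Ucp2 and Cat, which differed by 0.16 without T100 replicate 3. The 95% interval of the difference lay wholly within 0.5 on either side of 0 for 39 of the 45 genes in T10 and for 37 in T50 and in T100, a count that includes the 31 genes below background. Of the 14 genes above it, the interval lay within these bounds for 8 in T10, 6 in T50 and 7 in T100.

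**Figure D2:**
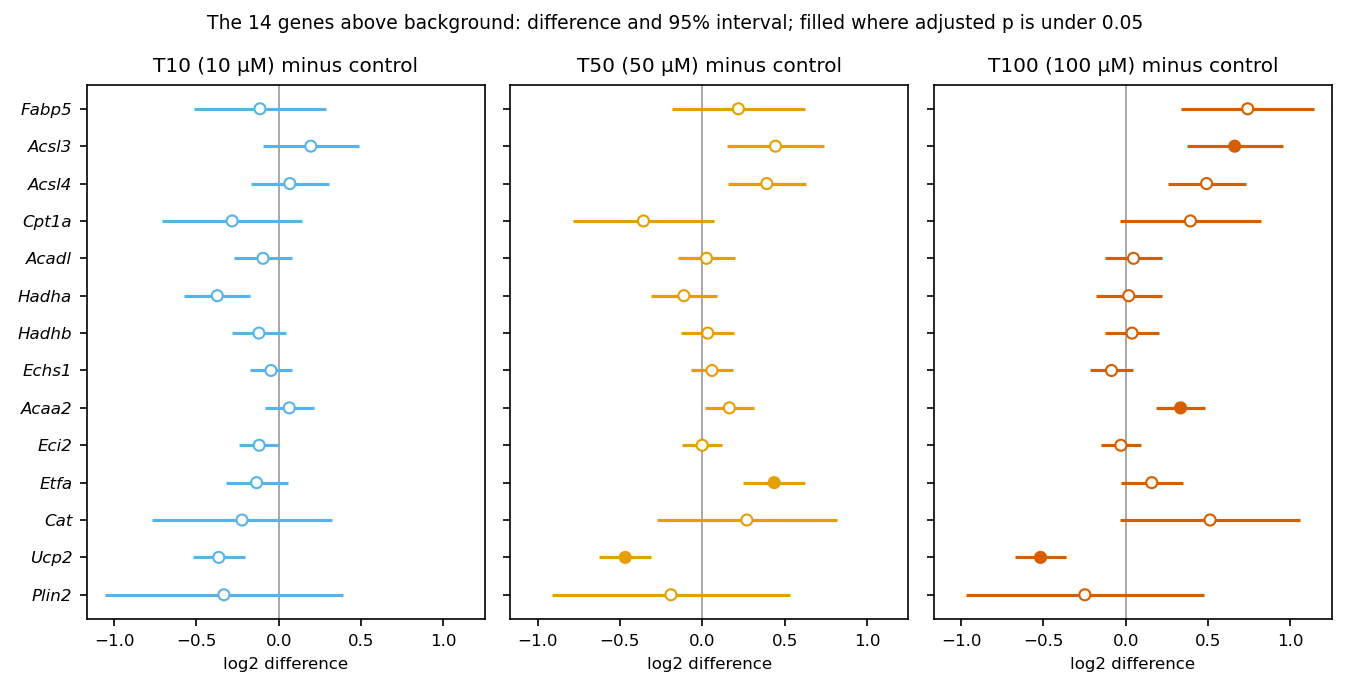
Log2 difference from control (horizontal axis) with its 95% interval for the 14 genes above background, in T10, T50 and T100, filled where the adjusted p is under 0.05. Filled points are Etfa and Ucp2 in T50 and Acsl3, Acaa2 and Ucp2 in T100; the widest intervals are those of Plin2.

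Among the genes of fatty acid binding and activation, Acsl3 was higher at 100 µM and its neighbours Acsl4 and Fabp5 had large differences that missed the threshold. Acsl3 encodes a long-chain acyl-CoA synthetase of the endoplasmic reticulum and lipid droplets. Its signal was 7.58, 7.45 and 7.72 in control, 7.58, 8.04 and 7.72 in T10, 7.81, 8.04 and 8.24 in T50, and 8.31, 8.22 and 8.21 in T100. All T50 and T100 arrays lay above all controls, while T10 overlapped them. The mean was 8.25 ± 0.05 in T100 and 7.58 ± 0.14 in control (SD, n = 3 each), a log2 difference of 0.66 ± 0.13 (SE) or 1.58-fold (limma, Benjamini-Hochberg adjusted p = 0.0423). The T10 and T50 differences were 0.19 (adjusted p = 0.591) and 0.44 (adjusted p = 0.192). Single arrays decided the call, which held without T10 replicate 1 or 2 or T50 replicate 1 or 3 and was lost without any of the other 8 arrays, with an adjusted p of up to 0.153 without control replicate 2. With a covariate for the range of each array (its 95th percentile over genes) the difference was 0.62 (adjusted p = 0.145). The call was also lost with the replicate number as a block.

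Acsl4, a synthetase with a preference for arachidonic acid, had signals of 8.28, 8.14 and 8.20 in control, 8.12, 8.38 and 8.33 in T10, 8.63, 8.63 and 8.54 in T50, and 8.63, 8.51 and 8.95 in T100. The T50 and T100 arrays all lay above the controls. In T100 the difference was 0.49 ± 0.11 or 1.40-fold (adjusted p = 0.0593), and in T50 it was 0.39 ± 0.11 (adjusted p = 0.147), so neither passed. After quantile normalization both passed, at 0.40 in T100 (adjusted p = 0.0217) and 0.41 in T50 (adjusted p = 0.0182). Without T100 replicate 2 the T100 difference was 0.58 (adjusted p = 0.0422).

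Fabp5 encodes an intracellular carrier that also delivers ligands to PPAR delta. Its signals were 8.58, 8.27 and 8.43 in control, 8.52, 8.30 and 8.11 in T10, 8.42, 8.98 and 8.53 in T50, and 8.85, 9.38 and 9.26 in T100. All T100 arrays lay above the controls and above T10, but T100 replicate 1 lay under T50 replicate 2. The difference of T100 from control, 0.74 ± 0.18 or 1.67-fold, was the greatest against control among the 45 genes and missed the threshold (adjusted p = 0.0850). Against T10 it was 0.85 ± 0.18 or 1.81-fold and passed (limma, adjusted p = 0.0371). That call held without T50 replicate 1 or 2 or T100 replicate 1, and was lost without any of the other 9 arrays, with an adjusted p of up to 0.124 without T100 replicate 3. After quantile normalization the difference between T100 and T10 was 0.58 (adjusted p = 0.227). The call was also lost with the covariate for the range of each array, with the replicate number as a block and with only the arrays compared. Acsl1, the main synthetase of liver, and the uptake and binding genes Cd36, Fabp1 and Fabp4 were below background.

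**Figure D3:**
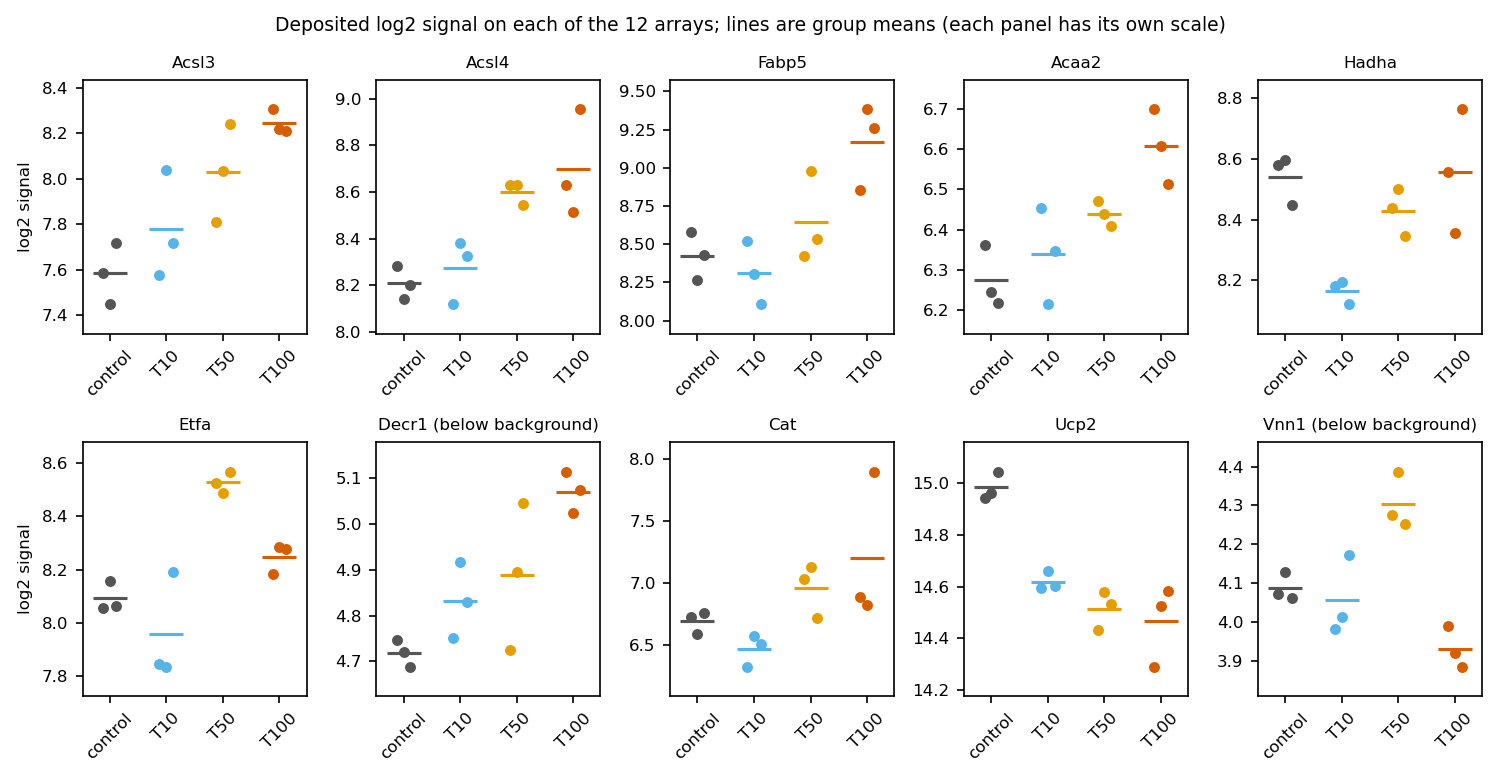
Deposited log2 signal on each of the 12 arrays (vertical axis, a scale of its own in each panel) for 10 genes in control, T10, T50 and T100, with horizontal lines at the group means. Acsl3 and Acaa2 have their highest means in T100, Etfa has all T50 arrays above all others, Ucp2 has all controls above all exposed arrays, and the Cat mean of T100 rests on replicate 3.

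In the carnitine shuttle, Cpt1a alone was above background. It encodes the outer-membrane transferase that controls entry of long-chain fatty acids into mitochondria. Its means were 7.81 ± 0.06 in control cells, 7.52 ± 0.05 in T10 cells, 7.45 ± 0.39 in T50 cells and 8.20 ± 0.32 in T100 cells (SD, n = 3 each). The T100 arrays lay above all others, and the T10 arrays lay below the controls. None of the differences from control passed, at -0.28 in T10 (adjusted p = 0.593), -0.36 in T50 (adjusted p = 0.568) and 0.39 in T100 (adjusted p = 0.456), nor did T100 against T10, at 0.68 (adjusted p = 0.0951), or T100 against T50, at 0.75 (adjusted p = 0.123). Cpt1b, Cpt2 and the carnitine-acylcarnitine carrier Slc25a20 were below background.

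Of the 9 genes of the mitochondrial cycle, 5 were above background (Acadl, Hadha, Hadhb, Echs1 and Acaa2), and 1 of them, Acaa2, was higher at 100 µM. Acaa2 encodes the thiolase that cleaves acetyl-CoA in the last step. Its signals were 6.36, 6.24 and 6.22 in control, 6.45, 6.21 and 6.35 in T10, 6.47, 6.44 and 6.41 in T50, and 6.70, 6.61 and 6.51 in T100. The T50 and the T100 arrays lay above all controls, and every T100 array lay above every T50 array. The mean was 6.61 ± 0.09 in T100 and 6.27 ± 0.08 in control, a difference of 0.33 ± 0.07 (SE) or 1.26-fold (limma, adjusted p = 0.0440). The call held without T10 replicate 1 or 2 and was lost without any of the other 10 arrays, with an adjusted p of up to 0.153 without control replicate 2. It was also lost after quantile normalization, at 0.25 (adjusted p = 0.256). The same held with a trended robust prior, with the covariate for the range of each array and with only the arrays compared.

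Hadha encodes the alpha subunit of the trifunctional protein, which hydrates long-chain enoyl-CoA and oxidizes the product. Its signals were 8.58, 8.59 and 8.45 in control, 8.18, 8.20 and 8.12 in T10, 8.44, 8.50 and 8.35 in T50, and 8.56, 8.36 and 8.76 in T100. T10 stood below every other array, and the other 3 groups overlapped. The difference of T10 from control was -0.37 ± 0.09 and did not pass (adjusted p = 0.103), while T100 against T10 passed at 0.39 ± 0.09 or 1.31-fold (limma, adjusted p = 0.0496). That call held without T100 replicate 2 and was lost without any of the other 11 arrays, with an adjusted p of up to 0.129 without T10 replicate 1. The range of the arrays moved with this result: the 95th percentile over genes was lowest in T10, at 9.42, and stood at 9.57 for control, 9.57 for T50 and 9.66 for T100. Every T10 array had a lower percentile (up to 9.48) than every other array (from 9.53). In contrasts with T10, those of Fabp5 and Etfa among them, this covariate and the exposure therefore cannot be told apart. With that percentile as a covariate the Hadha difference between T100 and T10 was -0.01, and after quantile normalization it was 0.14 (adjusted p = 0.542). The call was also lost with a trended robust prior, with the replicate number as a block and with only the arrays compared.

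Hadhb, the thiolase subunit of the same protein, had means of 7.17 ± 0.11 in control cells, 7.05 ± 0.07 in T10 cells, 7.20 ± 0.09 in T50 cells and 7.21 ± 0.10 in T100 cells, with no difference that passed. Acadl, the long-chain acyl-CoA dehydrogenase, ranged only between 7.16 in T10 and 7.30 in T100 in its group means. Echs1, the short-chain enoyl-CoA hydratase, averaged 6.69 ± 0.04 in control cells, 6.64 ± 0.11 in T10 cells, 6.75 ± 0.05 in T50 cells and 6.60 ± 0.09 in T100 cells. Its second probe set averaged 6.67 ± 0.20, 6.43 ± 0.08, 6.74 ± 0.20 and 6.68 ± 0.16 in the same order of groups, so the probe sets had their lowest means in different groups. For these 3 genes the 95% intervals against control reached no further than -0.28 and 0.22. The acyl-CoA dehydrogenases Acadm, Acads and Acadvl and the hydroxyacyl-CoA dehydrogenase Hadh were below background.

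Among the 5 auxiliary enzymes for unsaturated fatty acids, Eci2 was above background and Decr1 passed a test below it. Eci2, an enoyl-CoA isomerase, averaged 6.21 ± 0.07 in control cells, 6.09 ± 0.03 in T10 cells, 6.21 ± 0.06 in T50 cells and 6.18 ± 0.10 in T100 cells, and no difference passed. Decr1, the mitochondrial dienoyl-CoA reductase, had signals of 4.75, 4.72 and 4.69 in control, 4.75, 4.92 and 4.83 in T10, 4.72, 4.90 and 5.05 in T50, and 5.12, 5.02 and 5.07 in T100. The T100 arrays lay above the controls and T10, with no overlap. T100 differed from control by 0.35 ± 0.07 (limma, adjusted p = 0.0490), with both means below background. The call held without T50 replicate 1 or 3 and was lost without any of the other 10 arrays, with an adjusted p of up to 0.148 without control replicate 2. It was also lost after quantile normalization (adjusted p = 0.0602), with the covariate for the range of each array and with the replicate number as a block. Ech1, a dienoyl-CoA isomerase, also below background, differed by 0.26 ± 0.05 in T100 and missed the threshold (adjusted p = 0.0548).

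Etfa was higher at 50 µM than in control and at 10 µM. It encodes the alpha subunit of the flavoprotein that takes electrons from the acyl-CoA dehydrogenases. Its signals were 8.05, 8.16 and 8.06 in control, 7.84, 7.84 and 8.19 in T10, 8.53, 8.49 and 8.57 in T50, and 8.18, 8.28 and 8.28 in T100. The T50 arrays stood above all 9 others, and T100 lay between T50 and control. T50 averaged 8.53 ± 0.04 and control 8.09 ± 0.06, a difference of 0.44 ± 0.08 or 1.35-fold (limma, adjusted p = 0.0397), and T50 against T10 was 0.57 ± 0.08 or 1.49-fold (adjusted p = 0.0101). T10 and T100 differed from control by -0.13 and 0.16, and neither passed. The T50 call against control held without any 1 of the 3 T10 arrays and was lost without any of the other 9 arrays, with an adjusted p of up to 0.138 without control replicate 1. It was also lost with the covariate for the range of each array (adjusted p = 0.0506) and with the replicate number as a block. The call against T10 held in all 12 omissions of 1 array and was lost with that covariate (adjusted p = 0.229) and when only the arrays of T50 and T10 were fitted (adjusted p = 0.129). The partner subunit Etfb and the dehydrogenase Etfdh, which passes the electrons on, were below background, with Etfb at 5.25 ± 0.05 in control cells, 5.03 ± 0.06 in T10 cells, 5.08 ± 0.02 in T50 cells and 5.16 ± 0.11 in T100 cells.

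Of the 5 genes grouped here as peroxisomal, which leave out Eci2 and Decr2, catalase was above background. Cat encodes the enzyme that breaks down the hydrogen peroxide of peroxisomal oxidation. Its signals were 6.72, 6.59 and 6.76 in control, 6.32, 6.57 and 6.51 in T10, 7.03, 7.13 and 6.72 in T50, and 6.88, 6.82 and 7.90 in T100. T100 replicate 3 stood far above the other 11 arrays. The difference of T100 from control was 0.51 ± 0.25, with a 95% interval from -0.04 to 1.06, and did not pass (adjusted p = 0.447). Without T100 replicate 3 it was 0.16, and with the covariate for the range of each array it was 0.12. Hsd17b4, the second peroxisomal bifunctional enzyme, lay at the background level, above it on 2 control arrays and 1 T50 array, with means between 5.26 in T10 and 5.45 in T100. Ehhadh, the thiolase Acaa1a and the peroxisome-dividing protein Pex11a were below background, as were the thioesterases Acot1 and Acot2.

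Ucp2 was the only gene of the 45 called in more than 1 exposure against control, and it was lower. It encodes an uncoupling protein of the inner mitochondrial membrane and is a target of PPARs and fatty acids in several tissues. Its signals were 14.94, 14.96 and 15.05 in control, 14.59, 14.66 and 14.60 in T10, 14.43, 14.58 and 14.53 in T50, and 14.29, 14.52 and 14.58 in T100. Every control array lay above every exposed array. The mean was 14.98 ± 0.05 in control cells, 14.62 ± 0.04 in T10 cells, 14.52 ± 0.08 in T50 cells and 14.47 ± 0.15 in T100 cells. The difference of T10 from control was -0.36 ± 0.07 and missed the threshold (adjusted p = 0.0513). It was -0.47 ± 0.07 or 1.38-fold lower in T50 (limma, adjusted p = 0.0142) and -0.52 ± 0.07 or 1.43-fold lower in T100 (adjusted p = 0.0104).

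The Ucp2 calls were lost under quantile normalization and kept with the covariate for the range of each array (adjusted p = 0.0171 in T50 and 0.0277 in T100). After quantile normalization the differences were 0.04 in T10 (adjusted p = 0.970), -0.13 in T50 (adjusted p = 0.835) and -0.21 in T100 (adjusted p = 0.706). The T100 call held in all 12 omissions of 1 array. The T50 call was lost without control replicate 2 (adjusted p = 0.0549) or control replicate 3 (adjusted p = 0.0578). With only the arrays of T100 and control fitted, the adjusted p was 0.0817. The T10 difference passed without T100 replicate 1 (adjusted p = 0.0164) or T100 replicate 3 (adjusted p = 0.0382).

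Plin2, which coats lipid droplets and is induced by fatty acids through PPARs, varied widely within groups. Its means were 8.43 ± 0.40 in control cells, 8.10 ± 0.39 in T10 cells, 8.24 ± 0.65 in T50 cells and 8.18 ± 0.17 in T100 cells. The differences from control were -0.33 in T10, -0.19 in T50 and -0.25 in T100, each with an SE of 0.32, and the 95% interval in T10 ran from -1.06 to 0.39. None passed, and these intervals leave room for changes of either sign. Vnn1, a pantetheinase induced by PPAR alpha in mouse liver, was below background. Its signals were 4.07, 4.13 and 4.06 in control, 3.98, 4.01 and 4.17 in T10, 4.28, 4.39 and 4.25 in T50, and 3.99, 3.92 and 3.88 in T100. T100 was lower than T50 by a log2 difference of -0.37 ± 0.06 (limma, adjusted p = 0.0130), with no overlap, while the differences of both from control did not pass. Without T50 replicate 2 the adjusted p was 0.0505, and without T100 replicate 3 it was 0.0589. The call was also lost with only the arrays of T100 and T50 fitted.

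Between exposures, 1 of the 45 genes was called in T50 against T10 (Etfa), where 2.01% of all genes were. In T100 against T10 2 were called (Fabp5 and Hadha, both higher), where 3.08% of all genes were. In T100 against T50 1 was called (Vnn1), where 1.16% of all genes were. The moderated F test for any difference among the 4 groups called 3 of 45, where 3.8% of all genes were called: Ucp2 (adjusted p = 0.0105), Etfa (adjusted p = 0.0186) and Vnn1 (adjusted p = 0.0216). Without T50 replicate 1, 2 or 3 the F test of Etfa had an adjusted p of 0.0558, 0.0517 or 0.0592. The F test of Vnn1 had an adjusted p of 0.0546 without T50 replicate 1, 0.0687 without T50 replicate 2, 0.0547 without T100 replicate 2 and 0.0569 without T100 replicate 3, and that of Ucp2 was lost after quantile normalization (adjusted p = 0.750).

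**Figure D4:**
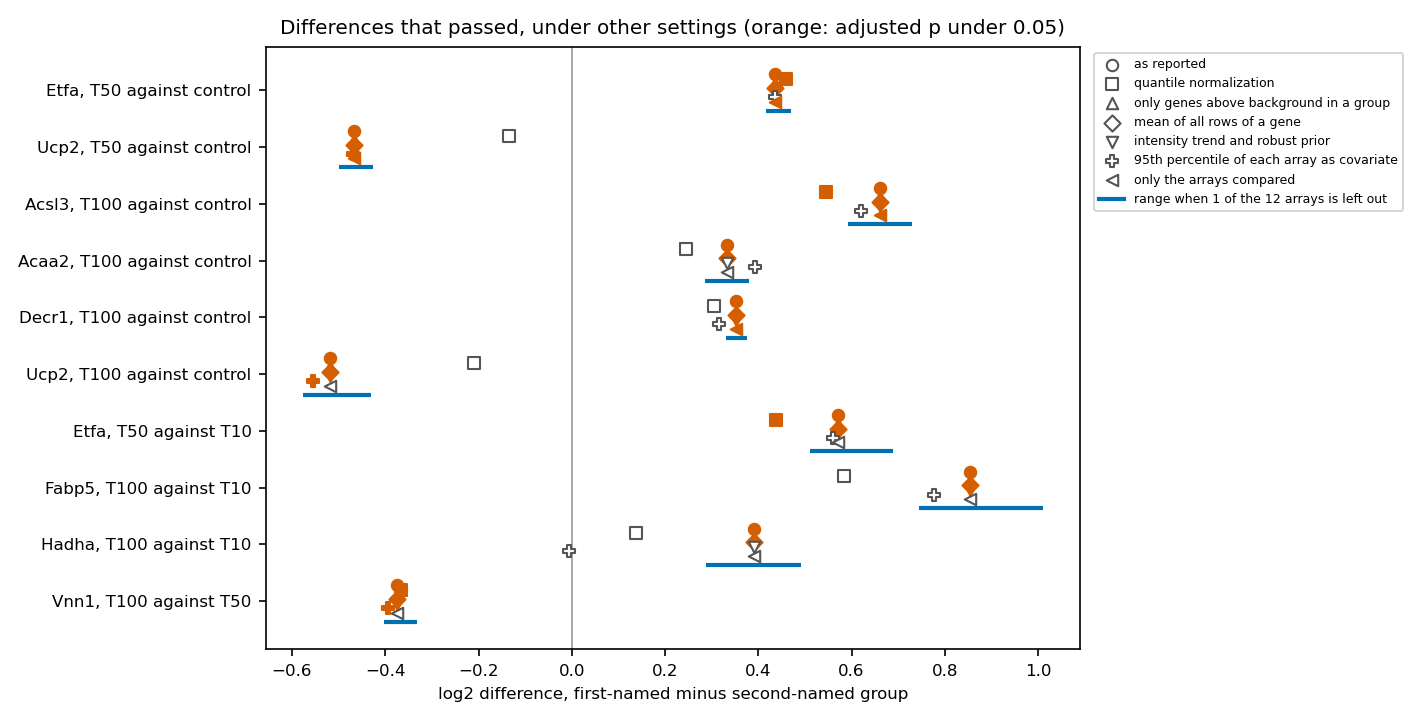
Log2 difference (horizontal axis, first-named minus second-named group) of each of the 10 differences called among the 45 genes, as reported and under other settings, orange where the adjusted p is under 0.05. Blue lines give the range when 1 of the 12 arrays is left out; the Ucp2 differences move towards 0 after quantile normalization, and the Hadha difference between T100 and T10 falls to -0.01 with the 95th percentile as a covariate.

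The other genes of these pathways, taken from lists of receptors and cofactors, uptake, mitochondrial and peroxisomal oxidation, peroxins, lipid droplets, further PPAR targets and fatty acid synthesis, were also mostly dim. Of 120 such genes measured, 28 were above background in a group, 11 of which belonged to the 16 genes of fatty acid synthesis. Most of all genes were dim too, with 3840 to 4516 of the 22093 above background per group. Against control, 0 of the 120 were called higher and 1 lower in T10, 2 higher and 0 lower in T50, and 2 higher and 1 lower in T100. Of all genes, 0.869% were called in T10. The shares were 0.742% higher and 0.566% lower in T50, and 0.941% higher and 0.521% lower in T100. The median differences of the 120 genes were 0.00, 0.01 and 0.01. For the 16 genes of fatty acid synthesis alone they were 0.02, 0.02 and 0.17. The other lists had medians between -0.02 and 0.09 in T100. The median of all genes above background in every group was 0.05 in T100.

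Above background, Acot9, a mitochondrial thioesterase, was higher in T50 by 0.36 ± 0.07 (limma, adjusted p = 0.0382). Me1, the cytosolic malic enzyme that supplies NADPH for lipid synthesis and is a PPAR target, had signals of 6.11, 6.06 and 5.97 in control, 5.90 to 6.03 in T10, 5.93, 5.90 and 6.03 in T50, and 6.38, 6.28 and 6.48 in T100. The T100 arrays stood above all others, with a difference from control of 0.33 ± 0.06 (adjusted p = 0.0308). Elovl5, an elongase of polyunsaturated fatty acids, had signals of 11.70, 11.56 and 11.90 in control, 11.61, 11.91 and 11.86 in T10, 11.68, 11.91 and 11.90 in T50, and 12.31, 12.28 and 12.32 in T100. Its T100 arrays also stood apart, with a difference of 0.58 ± 0.10 from control (adjusted p = 0.0257).

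Below background, Nr1h3, the liver X receptor alpha, was lower in T10 by a log2 difference of -0.26 ± 0.05 (limma, adjusted p = 0.0472) and in T100 by -0.27 ± 0.05 (adjusted p = 0.0319). Acad8, an acyl-CoA dehydrogenase of valine breakdown, was higher in T50 by 0.15 ± 0.03 (adjusted p = 0.0229). Of the 12 omissions of 1 array, the call held in 3 for Acot9, 6 for Me1, 7 for Elovl5, 0 and 5 for Nr1h3 in T10 and T100, and 8 for Acad8. The highest adjusted p was 0.142 for Acot9 (without control replicate 2), 0.0978 for Me1 (without control replicate 2) and 0.0941 for Elovl5 (without control replicate 2). It was 0.157 and 0.0938 for Nr1h3 in T10 and T100 (without T10 replicate 1 and T100 replicate 1) and 0.0885 for Acad8 (without control replicate 1). With the replicate number as a block, all these calls but that of Elovl5 were lost. With only the arrays compared, all but that of Acot9 were lost. The covariate for the range of each array lost Me1, Elovl5 and Nr1h3 in T10. A trended robust prior lost Acot9 and Nr1h3 in T10, and quantile normalization lost Nr1h3 in T10.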

How the data were processed

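RNA from 12 samples was hybridised to 12 Affymetrix rat whole-transcript arrays, after amplification of 100 ng of total RNA with the WT Plus kit, per the labels' protocols. The authors deposited log2 signals for 70580 probe sets on each array. The log base was inferred from their range, whose ceiling of 19.93 is shared by all arrays. The authors' background correction, summarization and normalization are not given in the sources used here. Probe sets were named from GEO's platform annotation, where 23446 carried 1 symbol, 505 several and 44891 none, and the Entrez number matched 22077 of the 23446 to RefSeq's gene table.

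The model was fitted in R 4.3.3 with lmFit and eBayes of limma 3.58.1 (4 group means, no block, prior degrees of freedom 1.71) over 22093 genes, dim ones included, two-sided, and adjusted by Benjamini-Hochberg. Contrasts between all pairs of groups and a moderated F test made 7 tests per gene. Errors of differences are the standard errors from this model (n = 3 arrays a group), and the number of arrays limits the precision. No 2 arrays were identical. Steps were tested on simulated data. Promoters were searched in Python 3.11.15.

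The 45 genes and all lists were chosen with earlier results of these data known. Genes above background or called in any test are named with values. Values on every array are given for the called genes and for the 6 genes above background with the largest differences from control; other pathway genes are named where they were called against control, at most 3 a list. Alternatives were quantile normalization, testing only genes above background, the mean of a gene's probe sets, a trended robust prior, the 95th percentile over genes as a covariate, the replicate number as a block, only the arrays compared, other background levels, and leaving out each array.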

Additional observations from a re-analysis of the deposited data

Results flagged for a closer look

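Differences of 4 genes between exposures passed the test of the difference itself (limma, adjusted over all genes). Etfa was higher in T50 than in T10 by 0.571 on the log2 scale (adjusted p = 0.0101), where T50 differed from control by 0.437 and T10 by -0.135. Fabp5 was higher in T100 than in T10 by 0.854 (adjusted p = 0.0371), where T100 differed from control by 0.74 and T10 by -0.114. Hadha was higher in T100 than in T10 by 0.391 (adjusted p = 0.0496), where T100 differed from control by 0.0178 and T10 by -0.374. Vnn1 was lower in T100 than in T50 by a log2 difference of -0.374 (adjusted p = 0.013), where T100 differed from control by -0.156 and T50 by 0.218, and its signals were below background in both groups.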

How the results depend on the processing

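The counts of the 45 genes called are small, and most moved with the processing. The reported counts were 0 in T10, 2 in T50 and 4 in T100 against control, 1 in T50 against T10, 2 in T100 against T10, 1 in T100 against T50 and 3 in the F test. Quantile normalization gave 2 in T100 against control (Acsl3 and Acsl4, both higher, so that the 1 lower call was gone), 1 in T100 against T10 and 3 in T100 against T50. Testing only genes above background in a group gave 2 in T10 against control, 7 in T100 against T10, 0 in T100 against T50 (Vnn1 is then not tested) and 7 in the F test. The mean of a gene's probe sets gave 1 in T10 against control, and the trended robust prior gave 1 in T100 against T10. A covariate for the range of each array (its 95th percentile over genes) gave 1 in T100 against control, 0 in T50 against T10 and 0 in T100 against T10, and it turned the Hadha difference between T100 and T10 to -0.0051 (limma, adjusted p = 1). That percentile was lower on every T10 array than on any other, so in contrasts with T10 the covariate and the exposure cannot be told apart. Fitting only the arrays compared gave 2 in T100 against control, 0 in T50 against T10, 0 in T100 against T10 and 0 in T100 against T50. Leaving out 1 array gave 0 to 2 in T10, 0 to 2 in T50 and 1 to 4 in T100 against control, 1 to 2 in T50 against T10, 0 to 2 in T100 against T10, 0 to 2 in T100 against T50 and 1 to 4 in the F test. With the 99th percentile of negative controls as background, 1 of the 45 genes (Ucp2) was above it, and with their median, taken on each array and exceeded in at least 1 group, 37 were; after quantile normalization it was 14. The cause of these moves was not tested, apart from the smaller number of genes or arrays that a setting itself brings. Over the single-gene differences recomputed, 516 values kept their side of the threshold, 178 lost a call, 16 gained one and 1 called value changed sign. This tally leaves out the omissions of 1 array after which an uncalled difference stayed uncalled, so it gives no share of all recomputed values. Uncalled differences that changed sign and stayed uncalled count as kept. That of Ucp2 in T10 was 0.04 after quantile normalization, against a reported -0.36. Others also changed sign in some setting. Among them, Cat in T10 ran from -0.27 to 0.47 (reported -0.22) and Cpt1a in T10 from -0.31 to 0.10 (reported -0.28).

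Replicates with the same number deviated no more alike than those with different numbers. Over 18 same-numbered pairs of arrays the correlation of deviations from group means ran from -0.314 to 0.227 (mean 0.004). Over 36 different-numbered pairs it ran from -0.343 to 0.325 (mean -0.002), and 5 of 12 arrays correlated best with their own number. Deviations sum to 0 within a group, so these correlations are not independent. Whether same-numbered replicates shared a step was not tested. With the replicate number as a block the counts were 1 in T10, 1 in T50 and 3 in T100 against control, 1 in T50 against T10, 2 in T100 against T10, 2 in T100 against T50 and 4 in the F test.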
